A study of Mus musculus with 4 samples.

Results

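The lung cells outside the endothelium of wild-type mice exposed to HySu were compared with those of wild-type mice kept in normoxia. All barcodes of the HSW and NW libraries entered, 12690 of the 25982 in the series, and the comparison was made within each lung cell class named by marker genes, the endothelium left out. RNA of single cells was captured on microwell chips after digestion of the lung and lysis of red cells, and sequenced from polyadenylated RNA. Members were 6553 cells, 3637 of NW and 2916 of HSW. They carried genes of only 1 lineage, at a level not too low, and fell in a class with at least 50 such cells in each library. Both groups were wild type for FUNDC1, whose deletion was the other factor of the study, and each library pooled cells from 5 mice aged 11 weeks. HSW mice were kept in hypoxia and given SU5416, an inhibitor of the receptors of vascular endothelial growth factor (VEGF), as 3 weekly doses, and NW mice received vehicle and stayed in normoxia. Strain, sex and the length of hypoxia are not given in the labels used here. With 1 pooled library a side there is no replicate. Square brackets give 95% intervals, which cover counting error alone, and no difference below has a test between mice.

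HySu is a rodent model of pulmonary hypertension, in which hypoxia and blockade of the VEGF receptor together drive remodelling of the small arteries. Hypoxia stabilises the HIF transcription factors, which raise genes of glycolysis and of vessel growth. SU5416 is also known as an agonist of the aryl hydrocarbon receptor (AHR), a ligand-activated factor that pairs with ARNT, binds the core motif GCGTG and switches on the drug-metabolising cytochromes Cyp1a1 and Cyp1b1, its own repressor Ahrr and the ADP-ribosyltransferase Tiparp. Around the vessels, alveolar type 2 (AT2) cells make surfactant, alveolar macrophages clear it, fibroblasts lay down matrix, and monocytes, interstitial macrophages and dendritic cells patrol the tissue.

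The promoters of 4 AHR targets are shown because the clearest difference by class was seen in this pathway. Each run is 300 bases on the gene's own strand, 250 before and 50 after the start site, from RefSeq on GRCm38.p6. Capitals mark GCGTG or its reverse complement CACGC. Cyp1a1 lies at chr9:57697363-57697662 on the plus strand, Cyp1b1 at chr17:79715012-79715311 on the minus strand, Tiparp at chr3:65528197-65528496 on the plus strand and Ahrr at chr13:74292282-74292581 on the minus strand.
Cyp1a1: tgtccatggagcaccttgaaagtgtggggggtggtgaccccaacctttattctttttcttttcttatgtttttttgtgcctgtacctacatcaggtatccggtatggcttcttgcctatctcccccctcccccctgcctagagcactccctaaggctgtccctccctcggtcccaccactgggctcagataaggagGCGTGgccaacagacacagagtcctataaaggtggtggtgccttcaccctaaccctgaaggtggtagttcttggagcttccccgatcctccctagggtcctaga
Cyp1b1: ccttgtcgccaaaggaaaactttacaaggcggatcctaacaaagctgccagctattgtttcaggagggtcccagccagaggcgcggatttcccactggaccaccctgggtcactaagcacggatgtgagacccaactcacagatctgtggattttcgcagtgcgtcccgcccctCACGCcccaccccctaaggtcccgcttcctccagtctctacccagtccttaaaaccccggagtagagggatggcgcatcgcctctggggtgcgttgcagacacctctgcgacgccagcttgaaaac
Tiparp: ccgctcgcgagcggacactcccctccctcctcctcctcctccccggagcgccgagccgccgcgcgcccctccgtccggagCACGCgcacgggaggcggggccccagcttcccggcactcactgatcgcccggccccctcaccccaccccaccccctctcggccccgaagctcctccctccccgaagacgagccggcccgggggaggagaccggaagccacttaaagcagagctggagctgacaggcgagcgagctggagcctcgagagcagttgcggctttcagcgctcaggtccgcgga
Ahrr: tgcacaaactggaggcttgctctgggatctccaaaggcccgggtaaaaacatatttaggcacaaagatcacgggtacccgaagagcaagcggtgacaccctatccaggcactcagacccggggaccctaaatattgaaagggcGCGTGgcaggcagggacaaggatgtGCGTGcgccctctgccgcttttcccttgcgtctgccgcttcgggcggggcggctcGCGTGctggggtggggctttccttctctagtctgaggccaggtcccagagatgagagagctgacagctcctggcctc
Ahrr held 3 matches and the other three promoters 1 each. A match on either strand was present in 7 of the 9 AHR-list promoters found in the table (77.8%), among them Arnt, and in 32.4% of all 32851 promoters; the window of Nqo1 held none. A match is a description of these letters and not of binding.

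Cyp1a1 RNA was near absent outside the endothelium in NW, at 0 to 6.91 CPM (UMIs of a gene scaled by the UMI total of the class), and stood at 42.9 to 58.4 CPM in every one of the 10 classes in HSW. A level that hardly varied between classes stood beside 7131 CPM in the vascular endothelial cells of HSW, which held 12301 Cyp1a1 UMIs (700.5 CPM in NW). Cyp1b1 gave 0.303 UMIs per Cyp1a1 UMI in the HSW endothelium. In 8 of the 10 classes outside it the same ratio ran from 0.252 in alveolar macrophages [0.207 to 0.305] to 0.556 in alveolar fibroblasts [0.275 to 1.08], and each interval held the endothelial value. Whether these 8 levels are the cells' own RNA or RNA of the endothelium was not tested, and no expression is read from them. The count in alveolar macrophages, for example, went from 0 to 132 Cyp1b1 UMIs.

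AT2 cells and adventitial fibroblasts stood apart from that ratio. Cyp1b1 in AT2 cells was 2.52 CPM in NW and 90.0 in HSW, a ratio of 35.7 [20.3 to 69.5], and it was seen in 8 of 786 NW cells and 314 of 853 HSW cells. With each cell thinned to 4230 UMIs the shares of AT2 cells with a Cyp1b1 UMI were 0.749% and 26.6%. Cyp1b1 UMIs in these cells outnumbered those of Cyp1a1, 575 to 343, or 1.68 for each [1.46 to 1.92]. Both AT2 clusters showed the gene, with ratios of 29.8 in cluster 1 and 58.5 in cluster 3. Adventitial fibroblasts already expressed Cyp1b1 in NW and had more in HSW (71.8 and 174 CPM, ratio 2.43 [1.59 to 3.81]), with 3.95 UMIs per Cyp1a1 UMI [2.45 to 6.63]. Thinned shares of these fibroblasts with a UMI were 23.6% and 37.8%.

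Other AHR targets were higher in few classes. Ahrr in interstitial macrophages was 5.18 CPM in NW and 33.9 in HSW, a ratio of 6.54 [1.98 to 34], from 3 UMIs in 2 cells and 23 in 16 cells, and the class had 0.622 Ahrr UMIs per Cyp1a1 UMI [0.353 to 1.07] against 0.00805 in the endothelium. In cDC2 cells, the type 2 conventional dendritic cells, Ahrr went from 1 UMI to 7. The same 2 classes had more Tiparp, 2.32 [1.33 to 4.23] in interstitial macrophages and 1.72 [1.18 to 2.52] in cDC2 cells, while the other 8 classes lay below 1 (6 with TMM), at 0.669 in AT2 cells and the rest above that. Nqo1, a quinone reductase under both AHR and NRF2, went from 2 UMIs to 32 in AT2 cells (ratio 11.9 [3.04 to 103]), in 29 of 853 cells. The receptor's own RNA, Ahr, was lower in AT2 cells (12.2 and 5.01 CPM, ratio 0.411 [0.258 to 0.643]). Over the AHR list the median log2 ratio stood above the median of all genes in 4 classes and below it in 6.

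**Figure D1:**
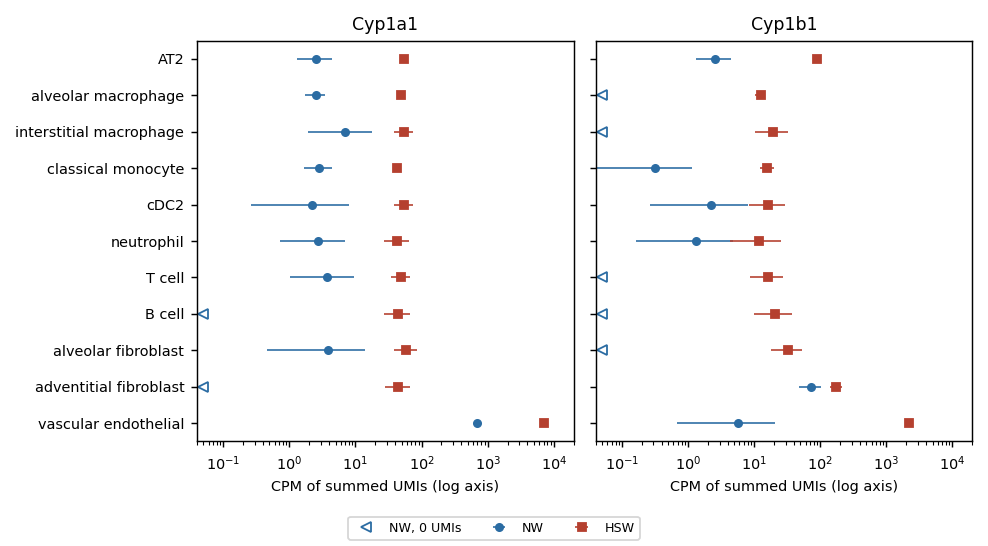
Cyp1a1 and Cyp1b1 levels (CPM, log axis) in each class of NW and HSW, the vascular endothelium beside the 10 compared classes, with 95% counting intervals as lines and open triangles for 0 UMIs in NW. Cyp1a1 sits between 42.9 and 58.4 CPM in all 10 classes of HSW, far under the endothelium, while Cyp1b1 stands out in AT2 cells and adventitial fibroblasts.

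The NW library held 7649 barcodes with a median of 6311 UMIs and HSW 5041 with 7185, and the median mitochondrial share was 1.62% and 2.41%. Barcodes left out as mixed made up 31.4% of NW and 25.5% of HSW. They had genes of 2 lineages, had low levels of the genes of their own lineage, or were called as doublets. Unnamed clusters, 20.7% of kept cells in NW and 8.73% in HSW, were left out as well. The 2 libraries shared 45 barcodes. Club cell RNA was found in every class: Scgb1a1 stood at 1430 to 2348 CPM in NW and at 2697 to 5589 in HSW, beside 623635 and 792102 CPM in club cells. RNA of surfactant proteins made up 0.223% to 0.290% of UMIs in the 9 classes other than AT2 in NW and 0.152% to 0.229% in HSW. Class names come from marker genes, so each name below stands for cells like that type, and all 10 classes come from the same 2 libraries and are not replicates of one another.

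AT2 cells made up 15% [14 to 16] in NW and 22.7% [21.4 to 24.1] in HSW, and adventitial fibroblasts 1.39% [1.09 to 1.75] in NW and 2.18% [1.74 to 2.7] in HSW. Interstitial macrophages made up 1.6% [1.28 to 1.98] in NW and 2.77% [2.27 to 3.35] in HSW. Neutrophils were fewer, 3.93% [3.42 to 4.49] in NW and 2.0% [1.57 to 2.5] in HSW, as were the non-classical monocytes that patrol the vessel wall, 4.21% [3.68 to 4.79] in NW and 1.2% [0.875 to 1.6] in HSW. Shares of the other compared classes lay closer together: alveolar macrophages 19.6% and 22.5%, classical monocytes 18.1% and 16.3%, T cells 3.26% and 3.14%, cDC2 cells 2.29% and 2.21%, B cells 2.23% and 1.92%, and alveolar fibroblasts 1.92% and 1.94%. Each share is of the kept cells of 1 digest, 5248 in NW and 3756 in HSW, and the deposited matrices start at different depths, at 3775 UMIs a cell in NW and 4230 in HSW. The shares of AT2 cells and classical monocytes depended on how unnamed clusters were treated. Cluster 8, which scored highest for AT2 cells but had none of their markers among its 10 leading genes, held 325 barcodes of NW and 95 of HSW. Cluster 6 held 636 and 166 and scored highest for classical monocytes, but at 0.298 beside 0.860 for cluster 0. None of its 10 leading genes was a classical marker, and Adgre4 among them is a non-classical one. With cluster 8 joined to AT2 cells, the HSW to NW ratio of the AT2 share was 1.19 in place of 1.52. With cluster 6 joined to classical monocytes, theirs was 0.674 in place of 0.900. The AT2 ratio was 1.17 when the 2 libraries were clustered by themselves.

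Most genes stood a little lower in HSW than in NW in every class. The median ratio over genes with at least 20 UMIs in a class ran from 0.699 in neutrophils to 0.850 in alveolar macrophages, log2 values of -0.52 to -0.24. Gene lists are therefore read against this median of all genes, and a ratio is called past the fold at 1.5 or above or at 0.667 or below. Members of a list count as measured with at least 20 UMIs in a class and as well measured, the base of the percentages of all genes, with at least 100. Scaling by the trimmed mean of M-values (TMM) multiplied ratios by 1.16 to 1.37 and shifted the balance of called genes towards higher, so the TMM balance is given for each class and beside each count of a list. Ratios called largest or smallest in a class were chosen among genes that reached 50 CPM in 1 library and lay not far under the highest level of any class, those too small to compare included.

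**Figure D2:**
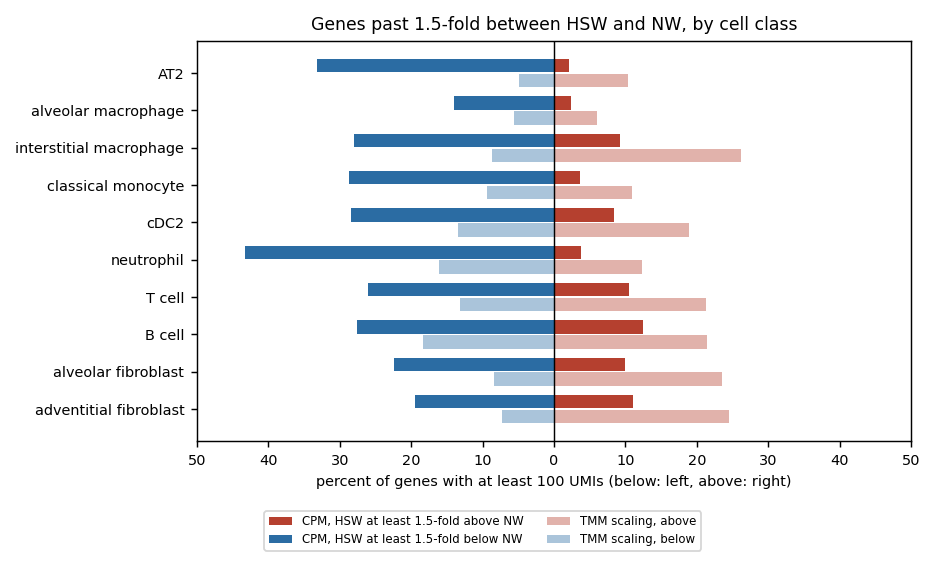
Percent of genes with at least 100 UMIs that stood past 1.5-fold higher or lower in HSW in each class, by class totals and by TMM factors. Lower genes prevail in every class by class totals, from 14.1% in alveolar macrophages to 43.2% in neutrophils, while with TMM lower genes prevail in neutrophils only.

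Respiratory chain RNA stood above the median of all genes in all 10 classes. For the mitochondrially encoded subunits the list median exceeded it by 0.69 to 1.33 log2 units and for the 75 nuclear-encoded subunits by 0.39 to 0.61. Ratios of mt-Cytb, the cytochrome b of complex III, ran from 1.56 to 2.51, and those of mt-Nd4, a complex I subunit, from 1.62 to 2.38. The light-strand gene mt-Nd6 was the exception, at 0.265 to 1.13 and below 1 in 9 classes. The share of all mitochondrially encoded UMIs in a class was 1.09 to 1.65 times that of NW, and the part of RNA quality in this was not tested. Ribosomal protein RNA went with it, at 0.912 to 1.46 times, above 1 in 9 classes.

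The circadian clock list stood below the median of all genes in all 10 classes, by 0.093 to 1.16 log2 units. Per1, a repressor of the clock loop that glucocorticoids also induce, ranged from 0.227 to 0.698, and Cry1, its partner, from 0.0717 to 0.601 in the 6 classes that measured it. Nr1d1, the nuclear receptor REV-ERB alpha of the opposite arm, was above 1 in all 5 classes that measured it (1.14 to 2.32). Arntl, which encodes the activator BMAL1, ran from 0.58 to 1.4 over 6 classes and Dbp, an output factor, from 0.648 to 1.8 over 4. The hour at which lungs were taken is not given in the labels used here. Tsc22d3, the glucocorticoid-induced leucine zipper, lay at 0.419 to 0.797, and Sgk1, a kinase induced by the same hormones, at 0.307 to 0.888. With TMM factors Sgk1 lay below 1 in 8 classes. Fkbp5, a chaperone of the glucocorticoid receptor, lay at 0.318 to 1.24 over 8 classes, below 1 in 7, and Ddit4, an inhibitor of mTOR, at 0.514 to 0.919 over 7. As a list, the glucocorticoid-induced genes stood above the median in 6 classes and below it in 4. Cebpb, a factor of inflammation and differentiation, lay at 0.237 to 0.615, the nuclear receptor Nr4a1 at 0.194 to 0.788 and Fos at 0.315 to 0.886, each below 1 in 10 of 10 classes (Fos in 8 with TMM). These 3 were chosen after their values were seen, and the stress factors Ddit3 (0.381 to 1.44) and Atf3 (0.499 to 1.4) lay above 1 in 6 and 4 of 10 classes, or 9 and 6 with TMM.

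HIF targets did not move as a block. The list stood above the median of all genes in 8 classes and below it in 2, by -0.11 to 0.45 log2 units. Gapdh, a glycolytic enzyme, was higher in 10 of 10 classes (1.31 to 1.96). Bnip3l, a mitophagy receptor on the mitochondrial surface, was higher in 9 of 10 (0.969 to 2.64), as was Epas1, which encodes HIF-2 alpha (0.86 to 2.64). Epas1 is also an endothelial gene. Over the 10 classes, RNA of endothelial marker genes made up 0.00639% to 0.0330% of UMIs in NW and 0.0109% to 0.0333% in HSW. The HSW to NW ratio of that RNA ran from 0.80 to 1.70, and its part in Epas1 was not tested. Pkm, which catalyses the last step of glycolysis, lay below 1 in 9 of 10 classes (0.495 to 1.23), or 6 with TMM, and Hif1a in 8 of 10 (0.551 to 1.14), or 7 with TMM. Vegfa, the ligand of the receptor that SU5416 blocks, ran from 0.376 to 2.2 over the 7 classes that measured it, above 1 in 2 of them, or in 5 with TMM. Kdr, that receptor, was measured in 3 classes, and its level in alveolar macrophages (1.9 and 9.0 CPM, ratio 4.74 [3.03 to 7.69]) was 0.711% of the highest class level.

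NRF2 and iron-handling genes stood above the median of all genes in 10 of 10 classes, by 0.12 to 0.38 log2 units. Ftl1, the ferritin light chain, lay at 1.02 to 1.7 and Fth1, the heavy chain, at 0.922 to 2.26. Genes of antigen display on MHC class I stood above it in 10 of 10 as well, by 0.037 to 0.69. B2m, the light chain of every class I molecule, was higher in all 10 (1.23 to 2.29), whereas Calr, the chaperone calreticulin of the same list, was lower in 9 (0.428 to 1.14). TGF-beta and activin genes stood below the median in 9 classes.

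**Figure D3:**
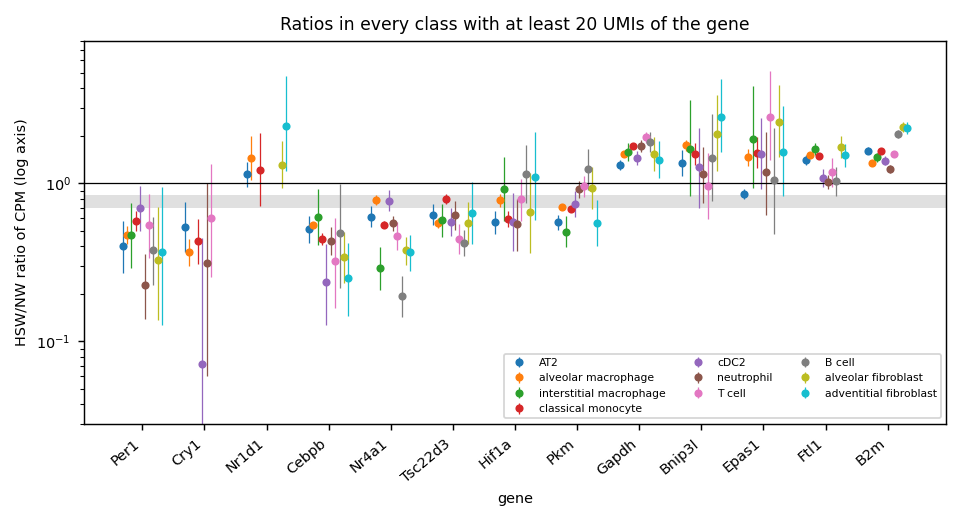
HSW to NW ratio of CPM (log axis) for 13 genes named in the text, 1 point for each class that measured the gene and a 95% counting interval as a line, with the range of the all-gene medians as a grey band. Per1, Cry1, Cebpb and Nr4a1 lie below 1 in every class shown and Gapdh, Ftl1 and B2m above it.

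**Figure D4:**
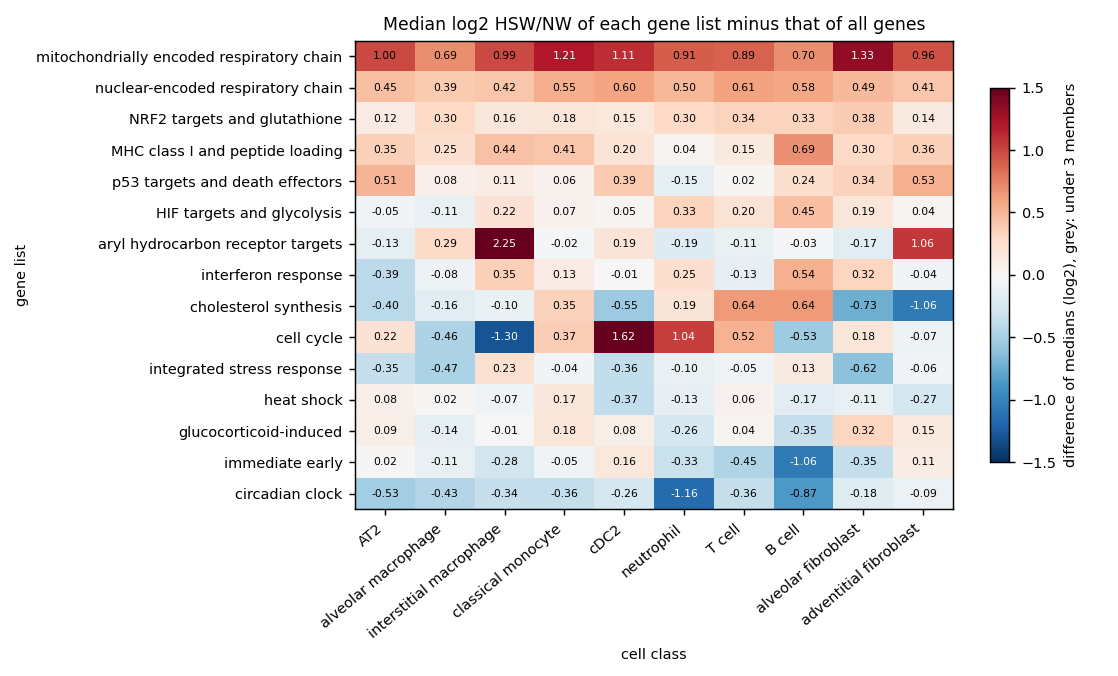
Difference between the median log2 ratio of a gene list and that of all genes in the same class, for 15 lists and 10 classes. The respiratory chain, NRF2 and MHC class I lists are above 0 in all 10 classes and the circadian clock list is below 0 in all 10.

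AT2 cells (786 in NW and 853 in HSW) had less RNA for cholesterol synthesis in HSW, and surfactant genes in both directions. Of 7217 genes, 2.08% stood past the fold higher and 33.1% lower, or 10.4% and 4.89% with TMM. All 21 measured genes of cholesterol synthesis lay below 1, or 18 of them with TMM, with a median log2 ratio of -0.85 beside -0.45 for all genes. Of these none of 21 stood past the fold higher and 18 lower (0 and 7 with TMM). Hmgcs1, the synthase just before HMG-CoA reductase, went from 234 to 86.3 CPM (ratio 0.368 [0.332 to 0.408]), and its ratio was 0.326 in cluster 1 and 0.373 in cluster 3. Idi1, which makes the activated isoprene unit, stood at 0.404 [0.306 to 0.531] and Lss, which closes the sterol ring, at 0.418 [0.334 to 0.521]. With TMM factors the Hmgcs1 ratio was 0.504. In fibroblasts too most measured cholesterol genes lay below 1, 7 of 9 in alveolar and 7 of 8 in adventitial ones, none of them with 100 UMIs. So did 20 of 21 in alveolar macrophages (19 with TMM) and 15 of 17 in cDC2 cells (14 with TMM). In T cells 12 of 16 (13 with TMM) and in B cells 8 of 11 (8 with TMM) lay above 1. Over the 10 classes the list stood below the median of all genes in 6 and above it in 4.

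The surfactant list in AT2 cells held both directions. Its median log2 ratio was -0.52, close to that of all genes, and none of 18 stood past the fold higher and 7 lower (2 and 0 with TMM), a share near that of all genes. Etv5, a transcription factor that maintains the AT2 state, was 392 CPM in NW and 209.5 in HSW, a ratio of 0.534 [0.497 to 0.573]. Lpcat1, the enzyme that makes dipalmitoyl lecithin, was lower too (1678 and 960.4 CPM, ratio 0.572 [0.553 to 0.592]), as were Chka, a choline kinase, at 0.556 [0.46 to 0.67] and Nkx2-1, the lung lineage factor, at 0.61 [0.557 to 0.668]. Products of the cell, chosen here after their values were seen, were as high or higher: Sftpc, surfactant protein C, 244154 CPM in NW and 292066 in HSW, a ratio of 1.2 [1.19 to 1.2], and Lyz2, a lysozyme, at 1.36 [1.35 to 1.37]. Sftpa1 was close to level at 1.02 [1.01 to 1.03].

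Zfas1, a non-coding host of small nucleolar RNAs, had the largest ratio of AT2 cells, 61.4 CPM in NW and 238 in HSW, a ratio of 3.88 [3.42 to 4.42], and was seen in 23.4% and 66.9% of cells. Retnla, a resistin-like secreted protein of type 2 inflammation, was second at 2.49 [2.33 to 2.66], but 1 cell held 31.6% of the HSW UMIs and the ratio was 1.37 with cells thinned. Use1, a SNARE protein of the endoplasmic reticulum, was 137 CPM in NW and 297 in HSW, a ratio of 2.17 [1.98 to 2.37], and Gas5, another host of small nucleolar RNAs, 2.1 [1.96 to 2.25], and both were higher in each of the 2 clusters. At the low end stood Myh7, a myosin heavy chain (103 and 32.1 CPM, ratio 0.313 [0.264 to 0.369]), Thbs3, a thrombospondin (0.335), Hmgcs1, and Lars2, a mitochondrial leucyl-tRNA synthetase (0.372). AT2 cells of NW fell mainly in cluster 1 (74.7%) and those of HSW in cluster 3 (55.1%), which was led by Cst8, Itih4, Il33 and Scd1.

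Lists of injury and defence gave no common direction in AT2 cells. Krt8, the keratin of transitional cells, was lower (194 and 98.7 CPM, ratio 0.508 [0.458 to 0.563]), as was S100a6 (0.511), and of the transitional genes none of 13 stood past the fold higher and 3 lower (2 and 0 with TMM). The p53 list had a median log2 ratio of 0.06, above that of all genes, and 1 of 14 stood past the fold higher and none lower (4 and 0 with TMM). Plk2, a p53-induced polo-like kinase, went from 17.9 to 35.7 CPM (ratio 2.0 [1.55 to 2.59]), with the cell cycle inhibitor Cdkn1a at 1.36 [1.15 to 1.61] and the death effector Bbc3 at 1.36 [0.95 to 1.95]. The interferon list had a median log2 ratio of -0.84, below the -0.45 of all genes, and none of 13 stood past the fold higher and 7 lower (2 and 1 with TMM). The balance of these few called genes turned with the scaling, but 29 of 32 measured members lay below 1, or 24 with TMM. Slfn2, a schlafen protein, stood at 0.363 [0.273 to 0.479] and Irf9, the DNA-binding part of the interferon-activated complex, at 0.506 [0.367 to 0.696]. Some lists of leukocyte genes were as low in AT2 cells, with medians of -0.96 for monocyte subset and -0.98 for B cell activation. The repair and lipid-associated macrophage list stood at -0.33. Macrophage marker RNA made up 0.0294% of AT2 UMIs in NW and 0.0184% in HSW. The part of leukocyte RNA in the interferon values was not tested. Class I loading split between its parts, with the peptide transporter Tap1 at 0.441 [0.302 to 0.638] and B2m at 1.61 [1.53 to 1.7]. Among factors acting on vessels, Fgf1 was lower (102 and 50.6 CPM, ratio 0.496 [0.43 to 0.572]), Pdgfa stood at 0.621 [0.496 to 0.775] and Vegfa at 0.735 [0.633 to 0.852], the level of the class median.

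Alveolar macrophages (1030 and 845 cells, the deepest compared class) had less RNA for several inflammatory chemokines and cytokines and for amino acid stress in HSW. Among 9616 genes, 2.42% stood past the fold higher and 14.1% lower, or 5.95% and 5.63% with TMM. Among chemokines and their receptors 1 of 20 stood past the fold higher and 10 lower (1 and 8 with TMM). Ccl3, an inflammatory chemokine, went from 401 to 163 CPM (ratio 0.406 [0.385 to 0.429]) and was lower in each of the 4 clusters of the class (0.319 to 0.605). Cxcl3, a neutrophil attractant, had the smallest ratio (89.9 and 15.6 CPM, ratio 0.174 [0.147 to 0.205]); it is among the leading genes of cluster 2, which held 47.7% of the class in NW and 30.4% in HSW, and with clusters weighted equally the ratio was 0.304. The receptors Ccr7 (0.322 [0.212 to 0.475]) and Ccr2 (0.426 [0.335 to 0.538]) were lower, and Ccl5 was higher (29.3 and 46.3 CPM, ratio 1.58 [1.38 to 1.81]). These Ccl5 levels lay far under those of T cells given further down. The naive and central lymphocyte list, which holds Ccr7, had a median log2 ratio of -0.86 in these macrophages, beside -0.24 for all genes. The part of RNA of other leukocytes in Ccr7, Ccr2 and Ccl5 was not tested. In the inflammatory list 1 of 22 stood past the fold higher and 8 lower (1 and 4 with TMM). Acod1, the itaconate-making enzyme, stood at 0.274 [0.174 to 0.418], Ptgs2, the inducible cyclooxygenase, at 0.373 [0.231 to 0.584] and Tnf at 0.514 [0.476 to 0.555], with Il18 at 1.52 [1.48 to 1.57] on the other side.

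The integrated stress response of alveolar macrophages, which raises amino acid supply through ATF4, was lower in HSW: of its genes none of 16 stood past the fold higher and 10 lower (0 and 6 with TMM). Asns, asparagine synthetase, went from 9.72 to 1.52 CPM (ratio 0.156 [0.0865 to 0.263]) and its ratio ran from 0.105 to 0.218 in the 3 large clusters. Atf5 stood at 0.379 [0.302 to 0.472], the folate enzyme Mthfd2 at 0.393 [0.327 to 0.47] and the serine enzyme Psat1 at 0.538 [0.397 to 0.723]. Of the cell cycle genes none of 17 stood past the fold higher and 11 lower (0 and 8 with TMM), such as the replication helicase subunit Mcm5 (0.324 [0.271 to 0.386]) and Top2a, the topoisomerase of dividing cells (0.282 [0.202 to 0.388]). Cluster 23, led by Mcm genes, held 8.06% of the class in NW and 3.67% in HSW, and the Mcm5 ratio within it was 0.715. For Mcm7, with one of the 4 smallest ratios of the class (0.45), the value was 0.69 with clusters weighted equally. Cluster 26, whose leading genes include Prc1, Ube2c, Birc5, Top2a and Mki67, is not part of the class. It carried alveolar macrophage genes at 0.614 of their highest cluster level and held 86 barcodes of NW and 47 of HSW. It was left unnamed, and 95.7% of its cells over the 4 libraries were removed as mixed. Its part in the cell cycle ratios was not tested.

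Genes of repair and lipid handling went in both directions in alveolar macrophages: in the repair list 3 of 27 stood past the fold higher and 2 lower (4 and 2 with TMM). Igf1, a growth factor for mesenchyme and epithelium, was 23.3 CPM in NW and 56.6 in HSW, a ratio of 2.43 [2.11 to 2.79], and Fabp5, a fatty acid binding protein, 339 CPM in NW and 585 in HSW, a ratio of 1.73 [1.66 to 1.79]. The matrix proteases Mmp14 (0.144 [0.0741 to 0.255]) and Mmp12 (0.509 [0.358 to 0.716]) were lower, and so were Abca1, the cholesterol efflux pump (0.581 [0.524 to 0.644]), the ubiquitin ligase Mylip (0.598 [0.532 to 0.672]), and the scavenger receptor Marco (0.661 [0.64 to 0.683]). Hgf, hepatocyte growth factor, was lower at 0.504 [0.372 to 0.676]. Sema3c, a guidance factor of vessels and a leading gene of the endothelial cluster, stood at 2.7 [1.86 to 3.97], 0.539% of the highest class level. Of the genes of haemoglobin and endothelium in these macrophages 8 of 11 stood past the fold higher and none lower (10 and 0 with TMM), and the endothelial markers together were at a ratio of 1.63, whose part in Sema3c was not tested. Spag11b, an antimicrobial peptide of the beta-defensin group, had the largest ratio of the class, 7.52 CPM in NW and 65.8 in HSW, a ratio of 8.75 [7.08 to 10.9], with 4.47% and 28.2% of cells and ratios of 4.74 to 14.8 over the 4 clusters. Tyrobp, the signalling adaptor DAP12 (1.93 [1.9 to 1.96]), the histone Hist1h4c (1.78 [1.58 to 2.01]) and the calcium-binding protein S100a11 (1.78 [1.74 to 1.82]) followed. S100a11 was higher in each of the 4 clusters (1.73 to 1.90), Hist1h4c in the 3 large ones. Per2 was the lowest clock gene (18 and 3.22 CPM, ratio 0.179 [0.121 to 0.257]), and Otulin, which removes linear ubiquitin chains, stood at 0.467 [0.403 to 0.539].

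Interstitial macrophages (84 and 104 cells) carried more RNA for MHC class II in HSW and less for cell division, with lipid-associated genes in both directions. Of 1869 genes, 9.2% stood past the fold higher and 28% lower, or 26.1% and 8.72% with TMM. Cd74, the invariant chain of MHC class II, was 24236 CPM in NW and 48487 in HSW, a ratio of 2.0 [1.96 to 2.04], H2-Eb1 stood at 1.87 [1.8 to 1.95] and H2-DMa, which edits the bound peptides, at 1.48 [1.34 to 1.63]. Of the class II genes 2 of 6 stood past the fold higher and none lower (6 and 0 with TMM). The repair list had a median log2 ratio of 0.50 beside -0.39 for all genes, and 8 of 22 stood past the fold higher and 5 lower (16 and 3 with TMM). Lgals3, galectin-3, was 834 CPM in NW and 2524 in HSW, a ratio of 3.02 [2.73 to 3.35], the lysosomal protease Ctsl was 2.74 [2.17 to 3.48] and the lipid carrier Apoe 2.31 [2.23 to 2.38]. Lpl, the lipase of triglyceride uptake, went the other way (966 and 158 CPM, ratio 0.163 [0.131 to 0.201]), as did Mmp14 (0.375 [0.241 to 0.572]). Gpnmb, a glycoprotein of lipid-laden macrophages, and Arg1, the arginase of alternative activation, both chosen here after their values were seen, went from 3 UMIs to 81 (ratio 23 [7.6 to 114]) and from 1 to 31 (ratio 26.4 [4.41 to 1077]). The cells that held these UMIs were not counted, so a single cell may carry much of either value.

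Chemokines of interstitial macrophages split: 6 of 18 stood past the fold higher and 4 lower (10 and 1 with TMM). Ccl8 was 3.19 [2.58 to 3.98] and Ccl7, which draws CCR2 monocytes, 2.46 [1.9 to 3.22], with Ccl6 at 2.56 [2.28 to 2.87]; Ccl8, like Apoe and C1qb, is among the genes that lead this cluster, and it was seen in 11 and 12 cells. Cxcl13, the B cell attractant, went from 639 to 113 CPM (ratio 0.177 [0.137 to 0.227]), from only 11 and 6 cells. Il1b was far lower (586 and 94.3 CPM, ratio 0.161 [0.121 to 0.211]), in 67.9% and 24% of cells. Of 22 measured cell cycle genes 21 lay below 1 (20 with TMM), and none of 6 stood past the fold higher and 5 lower (0 and 3 with TMM), with Top2a at 0.154 [0.0904 to 0.249] and Mki67 at 0.216 [0.127 to 0.352]. Of the complement genes 1 of 8 stood past the fold higher and 1 lower (4 and 1 with TMM). C1qb, part of the C1q recognition unit, stood at 1.73 [1.66 to 1.82] and C3, the central component, at 0.202 [0.129 to 0.308]. The largest ratios were those of Tmem37 (124 and 559.9 CPM, ratio 4.5 [3.49 to 5.87]), Rcbtb2 (3.93 [2.81 to 5.6]), the protease inhibitor Spint1 (3.73 [2.53 to 5.66]) and Ptgs1, the constitutive cyclooxygenase (3.6 [2.35 to 5.7]). Siglece, an inhibitory sialic acid receptor (0.222 [0.136 to 0.352]), the cyclin Ccnd1 (0.26 [0.198 to 0.34]) and the splicing factor Sf3b2 (0.27 [0.201 to 0.36]) were lowest after Cxcl13.

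Classical monocytes (949 and 611 cells) had more Ly6c2, the surface marker of their subset, and less Ccr2, also a classical marker, in HSW. Among 7813 genes 3.66% stood past the fold higher and 28.7% lower, or 11.0% and 9.39% with TMM. Ly6c2 was 2940.4 CPM in NW and 6623 in HSW, a ratio of 2.25 [2.21 to 2.29], with 2.28 in cluster 0 and 2.15 in cluster 10. Cebpb, a factor required for conversion to non-classical monocytes, went from 328 to 145 CPM (ratio 0.443 [0.405 to 0.485]), and Treml4 (0.516 [0.375 to 0.702]) and the integrin chain Itgal (0.494 [0.447 to 0.546]) were lower. Of the monocyte subset genes 2 of 26 stood past the fold higher and 13 lower (2 and 4 with TMM), and the list median of -0.55 stood below the -0.34 of all genes. The chemokine receptors Ccr2 (0.651 [0.631 to 0.672]), Cxcr4 (0.555 [0.487 to 0.632]) and Cx3cr1 (0.638 [0.539 to 0.754]) were lower. Of the whole list of chemokines and receptors 1 of 14 stood past the fold higher and 3 lower (4 and 0 with TMM). Ccl4, an inflammatory chemokine, was higher (874 and 1883 CPM, ratio 2.15 [2.08 to 2.23]), in both clusters (1.74 and 2.41). The interferon list stood above the median of all genes (a median log2 ratio of -0.21): 1 of 44 stood past the fold higher and 6 lower (12 and 0 with TMM). Its lowest members were sensors, Oas2 at 0.567 [0.475 to 0.674] and Ddx58, which encodes RIG-I, at 0.573 [0.471 to 0.693]; cluster 10, led by interferon genes, held 22.6% and 30.6% of the class. B2m stood at 1.61 [1.58 to 1.65] and Calr at 0.586 [0.552 to 0.622].

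The largest ratios of classical monocytes were those of Ly96, the MD-2 co-receptor of TLR4 (18.2 and 57.5 CPM, ratio 3.16 [2.53 to 3.98]), Ly6c2, the interferon-induced Ifi202b (2.18 [1.92 to 2.47]) and Ccl4. Ly96 was seen in 7.8% and 21.9% of cells, with ratios of 3.10 and 3.31 in the 2 clusters. At the low end were Dhdds, an enzyme of dolichol synthesis (0.342 [0.264 to 0.44]), the histone demethylase Kdm1a (0.366 [0.289 to 0.461]), Paxbp1 (0.371 [0.30 to 0.457]) and the mucin-type glycosyltransferase Galnt1 (0.398 [0.325 to 0.485]). Paxbp1 was also among the lowest of neutrophils.

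cDC2 cells (120 and 83) had more MHC class II RNA and far less of a set of macrophage genes in HSW. Of 2494 genes 8.46% stood past the fold higher and 28.4% lower, or 18.9% and 13.4% with TMM. H2-Oa, a modulator of peptide loading, was 92.3 CPM in NW and 274 in HSW, a ratio of 2.97 [2.28 to 3.89], H2-Eb1 1.69 [1.63 to 1.75] and Cd74 1.62 [1.6 to 1.65]. Both of the latter are among the genes that lead the cluster. Of the class II genes 3 of 10 stood past the fold higher and none lower (6 and 0 with TMM). Factors of the lineage went both ways: Irf8, which favours the type 1 lineage, at 0.349 [0.277 to 0.437], the cytokine receptor Flt3 at 0.576 [0.425 to 0.773], Id2 at 1.7 [1.49 to 1.94] and the activation marker Cd83 at 1.61 [1.2 to 2.17]. Retnla, one of the genes that lead this cluster, went from 1704 to 2.99 CPM (ratio 0.00176 [0.000213 to 0.00636]), from 15 of 120 cells to 2 of 83. In the repair and lipid-associated macrophage list 2 of 17 stood past the fold higher and 9 lower (3 and 7 with TMM). Fcrls (0.127 [0.0725 to 0.209]), Mmp12 (0.134 [0.097 to 0.181]), the mannose receptor Mrc1 (0.179 [0.13 to 0.241]) and Lpl (0.185 [0.131 to 0.255]) went with it. Markers of macrophages as a set made up 0.193% of cDC2 UMIs in NW and 0.0825% in HSW, and the part of macrophages within the cluster was not tested.

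Hilpda, a lipid droplet protein induced by hypoxia, had the largest ratio of cDC2 cells, 12.1 CPM in NW and 162 in HSW, a ratio of 13.4 [7.18 to 27.6], in 6 and 17 cells. Ifitm1, an interferon-induced membrane protein (95.6 and 814 CPM, ratio 8.51 [6.78 to 10.8]), the glutaminyl cyclase Qpct (3.73 [2.55 to 5.56]) and the adhesion molecule Epcam (3.72 [2.53 to 5.57]) followed. Lilra6, an immunoglobulin-like receptor, was among the lowest (0.156 [0.083 to 0.272]). Mitotic genes were higher but rested on few cells: Top2a (33 and 127 CPM, ratio 3.86 [2.52 to 6.06]) came from 8 and 9 cells, and with the 2 libraries clustered by themselves its ratio was 0.980. For Ube2c, a ubiquitin enzyme of mitosis, the ratio of 3.83 became 0.425. Mki67, seen in 19 and 16 cells, stood at 2.45 [1.76 to 3.42] and the licensing factor Mcm3 at 0.436 [0.266 to 0.692].

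Neutrophils (206 and 75 cells) differed first in make-up. Cluster 39, led by the granule genes Camp, Ngp and Ltf of immature cells, held 7.28% of the class in NW and 40% in HSW, and the mature cluster 13 the rest. Of 3000 genes 3.73% stood past the fold higher and 43.2% lower, or 12.4% and 16.1% with TMM. Ngp went from 1902 to 15680.1 CPM (ratio 8.24 [7.9 to 8.61]) and Camp from 2103 to 16532 CPM (ratio 7.86 [7.54 to 8.19]) in the class sum, but with the clusters weighted equally their ratios were 1.56 and 1.48, and that of Lcn2, a siderophore-binding granule protein, 1.93 in place of 5.41. Ltf, lactoferrin, was 4.62 in the sum and 0.873 with equal weights. The inflammatory list, with a median log2 ratio of -0.31, stood above the -0.52 of all genes, and none of 18 stood past the fold higher and 7 lower (1 and 3 with TMM). Il1b (5079 and 2809 CPM, ratio 0.553 [0.522 to 0.585]) had a ratio of 0.761 in the mature cluster, Nlrp3, the inflammasome sensor, 0.514 (0.368 in the class) and Ptgs2 0.531 (0.383 in the class). Of the granule genes 11 of 20 stood past the fold higher and 4 lower (14 and 0 with TMM). Ccl4 was higher (598 and 1535 CPM, ratio 2.57 [2.33 to 2.83]), with 3.72 in the mature cluster, and Per1 lower (180.0 and 40.9 CPM, ratio 0.227 [0.138 to 0.355]), with 0.298 there. Paxbp1 (0.123 [0.0393 to 0.296]), the polycomb partner Phf1 (0.137 [0.0437 to 0.331]) and the proton-sensing receptor Gpr65 (0.165 [0.070 to 0.335]) were among the lowest, together with Retnla, of whose NW UMIs 99.2% came from 1 cell. Ly6g, the surface marker of mouse neutrophils, was 4.79 in the sum and 1.66 with equal weights.

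T cells (171 and 118) had more Ccl5 and Gzmk in HSW and less RNA of the naive and central list. Of 2908 genes 10.5% stood past the fold higher and 26.1% lower, or 21.2% and 13.2% with TMM. Ccl5, a chemokine of effector and memory cells, was 1120.0 CPM in NW and 5287 in HSW, a ratio of 4.72 [4.43 to 5.04]; 1 cell held 23.9% of its HSW UMIs, and without the top cell of each library the ratio was 3.94. It was higher in both clusters (6.17 and 3.71). Of the effector genes 3 of 11 stood past the fold higher and 2 lower (5 and 2 with TMM). The granzyme Gzmk was higher (69.2 and 183 CPM, ratio 2.64 [1.99 to 3.54]), Ccl4 lower (462 and 213 CPM, ratio 0.46 [0.385 to 0.548]) and Gata3, the factor of type 2 helper cells, lower (111 and 38.3 CPM, ratio 0.344 [0.224 to 0.515]). Of the chemokines and receptors 1 of 10 stood past the fold higher and 6 lower (1 and 6 with TMM). Of 12 naive and central genes 11 lay below 1, also with TMM, and none of 11 stood past the fold higher and 8 lower (0 and 7 with TMM). Among them were the interleukin 7 receptor Il7r (0.365 [0.296 to 0.448]), Foxp1 (0.367 [0.263 to 0.505]), Tcf7 (0.44 [0.374 to 0.515]) and the chromatin organiser Satb1 (0.288 [0.202 to 0.403]). Il7r and Tcf7 are among the leading genes of cluster 15, which held 63.7% of the class in NW and 50.8% in HSW. The class sums include this shift. Il22, a cytokine that acts on epithelium, chosen here after its values were seen, went from 3 UMIs to 38 (ratio 16.7 [5.31 to 84.8]). How many cells held these UMIs was not counted.

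Histones Hist1h3e (3.81 [2.41 to 6.21]) and Hist1h4i (3.71 [2.44 to 5.78]) and Fam96b, an iron-sulphur assembly factor (3.3 [2.29 to 4.84]), were the next highest in T cells. Of the cell cycle genes 6 of 27 stood past the fold higher and none lower (11 and 0 with TMM), with the nucleotide enzyme Tyms at 2.12 [1.68 to 2.7]; the cycling cluster 20 held 36.3% of T cells in NW and 49.2% in HSW, and within it Tyms had a ratio of 1.65. Peli1, a ubiquitin ligase that restrains T cell activation, was lowest (196 and 44.5 CPM, ratio 0.227 [0.154 to 0.324]), followed by Glg1 (0.281 [0.173 to 0.439]) and the annotated microRNA gene Mir6236 (0.284 [0.218 to 0.366]). Of the immediate early genes none of 16 stood past the fold higher and 11 lower (0 and 5 with TMM), with Fos at 0.443 [0.398 to 0.494] and Nr4a1 at 0.463 [0.376 to 0.568].

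B cells (117 and 72) had more RNA of MHC class I and loading genes in HSW and less of the naive, activation and immediate early lists. Of 1685 genes 12.5% stood past the fold higher and 27.5% lower, or 21.4% and 18.3% with TMM. Pycard, the inflammasome adaptor ASC, was 122 CPM in NW and 731 in HSW, a ratio of 5.99 [4.66 to 7.79], and Lgals1, galectin-1, 369 CPM in NW and 1789 in HSW, a ratio of 4.85 [4.19 to 5.64]. Glipr1 (4.58 [2.99 to 7.23]) and Fgl2, a fibrinogen-like regulator (4.39 [3.14 to 6.23]), followed. Macrophage marker RNA made up 0.0312% of B cell UMIs in NW and 0.0495% in HSW, a ratio of 1.59. Its part in the largest ratios of the class was not tested. Of the class I and loading genes 5 of 16 stood past the fold higher and none lower (11 and 0 with TMM). The class I molecule H2-Q7 stood at 3.21 [2.81 to 3.69], B2m at 2.05 [1.93 to 2.18] and the immunoproteasome subunit Psmb9 at 2.05 [1.67 to 2.51]. Bach2, which holds B cells from plasma cell fate, was lowest (174 and 22.7 CPM, ratio 0.131 [0.0633 to 0.243]), with Chd3 (0.134 [0.065 to 0.25]), Mdn1, a ribosome assembly factor (0.166 [0.0826 to 0.303]), and Irf4 (0.181 [0.10 to 0.308]). Of the naive and central genes none of 7 stood past the fold higher and 5 lower (0 and 5 with TMM), and of those of activation and differentiation none of 11 stood past the fold higher and 8 lower (0 and 5 with TMM). Ighd, the IgD heavy chain of naive cells, was 1439 CPM in NW and 270.4 in HSW, a ratio of 0.188 [0.155 to 0.226], the IgE receptor Fcer2a 0.351 [0.218 to 0.547], Ccr7, which guides cells into lymphoid tissue, 0.301 [0.242 to 0.373] and the quiescence factor Klf2 0.46 [0.415 to 0.509]. Clusters 11, 19 and 29 were also led by Ighd but scored highest for other classes and are not part of the B cell class. They held 234, 137 and 81 barcodes of NW and 45, 53 and 37 of HSW. Their part in the ratios of naive genes was not tested. All 18 measured immediate early genes lay below 1, also with TMM, and none of 17 stood past the fold higher and 16 lower (0 and 15 with TMM), such as Nr4a1 (0.194 [0.142 to 0.26]) and Dusp1 (0.201 [0.153 to 0.26]). Cxcl10, an interferon-induced chemokine named after its values were seen, went from 3 UMIs to 76 (ratio 32.2 [10.6 to 159]), beside Ifi203 at 0.455 [0.352 to 0.583]. How many cells held the Cxcl10 UMIs was not counted.

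Both fibroblast classes had more Mfap4 in HSW, and alveolar fibroblasts had less RNA of contractile genes. In alveolar fibroblasts (101 and 73 cells) 10% of 1619 genes stood past the fold higher and 22.4% lower, or 23.5% and 8.34% with TMM, and in adventitial fibroblasts (73 and 82 cells) 11.1% and 19.5% of 1492, or 24.5% and 7.31%. Mfap4, a glycoprotein of elastic microfibrils and a leading gene of the alveolar cluster, was 1432 CPM in NW and 7521 in HSW, a ratio of 5.25 [4.85 to 5.69]; in adventitial fibroblasts it was 709 CPM in NW and 3298 in HSW, a ratio of 4.65 [4.11 to 5.29]. Acta2, smooth muscle actin, was lower in alveolar fibroblasts (198 and 26 CPM, ratio 0.131 [0.0657 to 0.239]), with Tagln (0.244 [0.163 to 0.356]), the myosin kinase Mylk (0.488 [0.414 to 0.572]) and filamin Flna (0.531 [0.422 to 0.666]). All 11 measured contractile genes there lay below 1, or 10 with TMM, and none of 9 stood past the fold higher and 4 lower (0 and 4 with TMM). Acta2 in alveolar fibroblasts stood at 0.705% of its level in smooth muscle cells and myofibroblasts, the highest class. Of the contractile genes of adventitial fibroblasts none of 7 stood past the fold higher and 3 lower (0 and 2 with TMM). The adventitial Acta2 ratio was 0.183 [0.105 to 0.303], but 1.11 when the 2 libraries were clustered by themselves; Flna was 0.369 [0.281 to 0.481] there. In the alveolar cluster 52.7% of cells over the 4 libraries were removed as mixed, and with only Scrublet calls removed its Acta2 ratio was 0.293.

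TGF-beta genes stood low in alveolar fibroblasts. In these, 18 of 19 measured members lay below 1 (16 with TMM), and none of 6 stood past the fold higher and 5 lower (0 and 3 with TMM). Ctgf, a matricellular target, stood at 0.295 [0.213 to 0.402], the inhibitory Smad7 at 0.376 [0.238 to 0.578] and Ltbp1, which tethers the latent ligand, at 0.505 [0.37 to 0.682]. In adventitial fibroblasts 12 of 16 measured members lay below 1 (11 with TMM), and 1 of 6 stood past the fold higher and 3 lower (1 and 1 with TMM), the higher one the ligand gene Tgfb3 (270.5 and 447 CPM, ratio 1.65 [1.31 to 2.09]). BMP signalling, whose receptor BMPR2 is mutated in heritable pulmonary hypertension, was measured in both: 3 of 6 stood past the fold higher and 2 lower (3 and 0 with TMM) in adventitial and none of 6 stood past the fold higher and 2 lower (0 and 1 with TMM) in alveolar fibroblasts, and the difference between the classes was not tested. In adventitial fibroblasts Bmp4, a ligand, was 67 CPM in NW and 160.4 in HSW, a ratio of 2.39 [1.54 to 3.82], its targets Id3 and Id2 were at 1.87 [1.6 to 2.19] and 1.82 [1.34 to 2.49], and Acvrl1, the ALK1 receptor, at 0.603 [0.417 to 0.867]. In alveolar fibroblasts Bmpr2 was at 0.676 [0.494 to 0.92], the caveolin Cav1 at 0.564 [0.399 to 0.788] and Tbx4, a lung mesenchyme factor, at 0.482 [0.352 to 0.653].

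Matrix genes of the fibroblasts differed member by member: 6 of 29 stood past the fold higher and 9 lower (6 and 3 with TMM) in alveolar fibroblasts and 5 of 30 stood past the fold higher and 10 lower (9 and 4 with TMM) in adventitial ones. Thbs1, thrombospondin 1, which activates latent TGF-beta, was 1361 CPM in NW and 281 in HSW, a ratio of 0.207 [0.17 to 0.25] in alveolar fibroblasts, the gelatinase Mmp2 532 CPM in NW and 1141 in HSW, a ratio of 2.14 [1.85 to 2.49] and its inhibitor Timp1 at 2.95 [2.09 to 4.22] (1.5 with only Scrublet calls removed). Of the collagens none of 14 stood past the fold higher and 4 lower (1 and 1 with TMM) in alveolar and none of 12 stood past the fold higher and 3 lower (1 and 2 with TMM) in adventitial fibroblasts. Col16a1 at 0.448 [0.281 to 0.697] and Col14a1 at 0.551 [0.375 to 0.799] were the lowest well-measured ones of alveolar fibroblasts, and Col5a1 at 0.447 [0.324 to 0.612] and Col15a1 at 0.458 [0.345 to 0.603] those of adventitial ones. Fibulin Fbln2 (0.319 [0.234 to 0.429]), Mmp14 (0.441 [0.325 to 0.593]) and perlecan Hspg2 (0.481 [0.338 to 0.679]) were lower in adventitial fibroblasts. Igfbp3, a binding protein of insulin-like growth factors, was lower in alveolar fibroblasts (579.8 and 162 CPM, ratio 0.28 [0.214 to 0.362]), beside the dynein heavy chain Dync1h1 (0.316 [0.20 to 0.484]) and Cebpb (0.343 [0.234 to 0.495]). Igfbp5, of the same family, was lowest in adventitial fibroblasts (721 and 168 CPM, ratio 0.234 [0.181 to 0.299]), with the translation factor Eif4g1 (0.288 [0.187 to 0.435]) and the G protein subunit Gnb1 (0.361 [0.248 to 0.519]) also among the lowest.

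Secreted signals of fibroblasts were among the largest ratios. Ccl8, a monocyte chemokine, was 40.7 CPM in NW and 371 in HSW, a ratio of 9.12 [5.54 to 16] in adventitial fibroblasts, in 9.59% and 39% of cells, and Wisp2, a matricellular protein of the same family as Ctgf, 47.9 CPM in NW and 176 in HSW, a ratio of 3.69 [2.25 to 6.32]. Saa3, an acute phase protein, went from 2 UMIs to 329 in adventitial and from 5 to 137 in alveolar fibroblasts, but 1 cell held 68.7% and 89.8% of the HSW UMIs; the alveolar ratio without the top cells was 5.28, and 3.00 with only Scrublet calls removed. The copper carrier Cp was higher in both classes, 1.63 [1.47 to 1.81] and 1.79 [1.53 to 2.1], and haptoglobin Hp in alveolar fibroblasts was 1.95 [1.45 to 2.65]. Mdk, the growth factor midkine (2.83 [1.92 to 4.27]), Fgf7, which acts on epithelium (1.74 [1.3 to 2.35]), and the homing chemokine Cxcl12 (1.55 [1.19 to 2.03]) were higher in alveolar fibroblasts and Wnt2 lower (0.542 [0.356 to 0.812]). Il33, an alarmin of adventitial stroma, was at 0.436 [0.304 to 0.62]. In the NRF2 list of adventitial fibroblasts 4 of 12 stood past the fold higher and 1 lower (5 and 0 with TMM). The glutathione transferase Gstm2 was 314 CPM in NW and 698 in HSW, a ratio of 2.23 [1.81 to 2.74] in adventitial fibroblasts, against 0.536 [0.402 to 0.711] in AT2 cells.

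**Figure D5:**
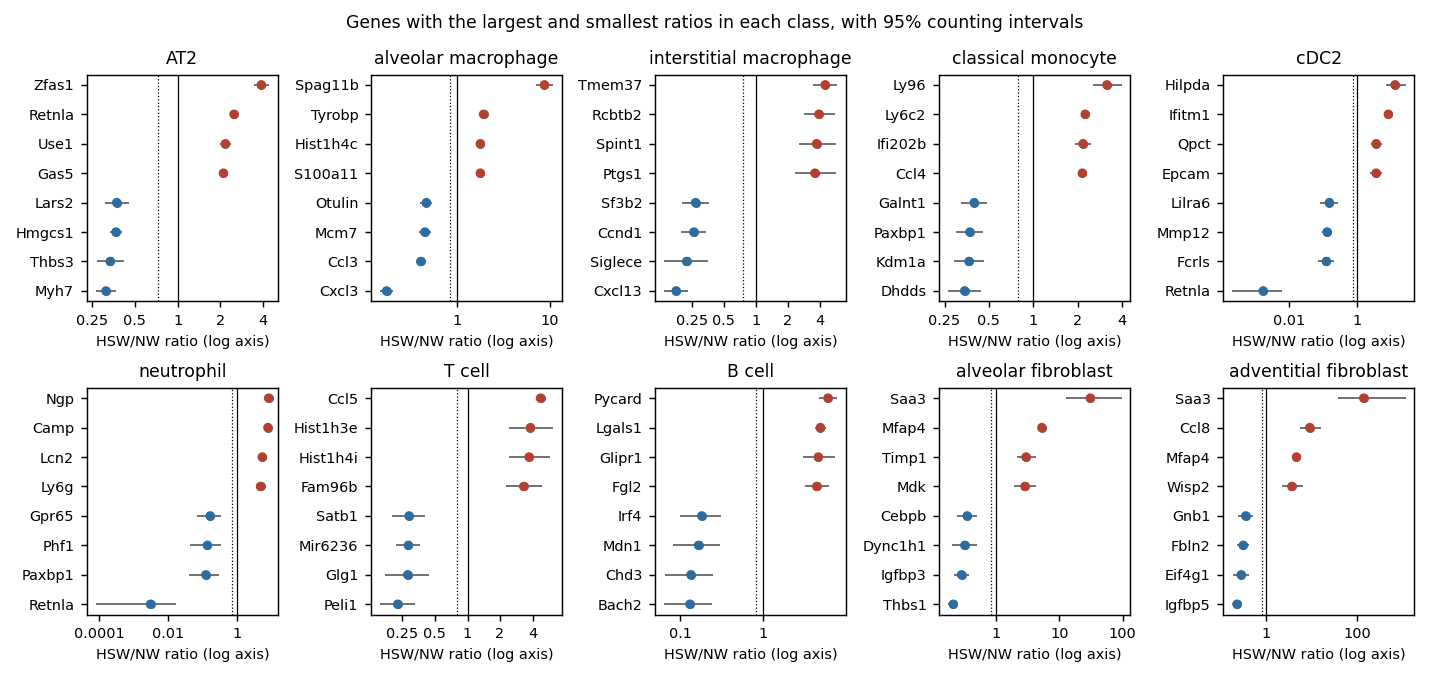
HSW to NW ratio of CPM (log axis) with 95% counting intervals for the 4 genes with the largest and the 4 with the smallest ratio of each class, by the rule of level and counts. Solid lines mark a ratio of 1 and dotted lines the median of all genes in the class, which lies between 0.699 and 0.850.

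Some of these genes have close copies between which counting can split reads: Spag11b, Ifi202b, H2-Q7 and the histones Hist1h3e, Hist1h4i and Hist1h4c are uncertain in that respect.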

How the data were processed

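The authors deposited whole-number UMI counts per gene and barcode, already restricted to called cells; the submitters' processing notes name cutadapt 1.17, STAR 2.6.1a, featureCounts 2.0.1, Scanpy and the GRCm38 (mm10) build. Cells with at least 200 genes and at most 20% mitochondrial UMIs were kept (1 HSW barcode removed). All 4 libraries were clustered together (scanpy 1.11.5, 2000 variable genes, 40 components, 20 neighbours, Leiden resolution 2, 51 clusters), and clusters were named from marker genes. Scrublet called 4 NW and 8 HSW barcodes, too few to have worked, so cells with genes of 2 lineages were removed by rule (at least 3 UMIs and 0.15 of the reference level). Cells with the genes of their own lineage under 0.15 of the reference level were removed as mixed too, as were the Scrublet calls. A limit of 5% Scgb1a1 in ciliated cells was set after ratios were seen.

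UMIs were summed per class and library and scaled to CPM. Intervals are exact binomial (Clopper-Pearson, scipy 1.17.1) at 95%; log2 ratios of lists add 0.5 UMI. Computation was tested on simulated data. Alternatives used edgeR 4.0.16 (TMM) and DESeq2 1.42.0 (size factors) in R 4.3.3, which served for scaling only. Single-cell shares with a UMI were also taken after thinning to 4230 UMIs, which left out 963 NW and 0 HSW cells.

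Named genes were, in each class, the 4 largest and 4 smallest ratios among genes with at least 100 UMIs, 50 CPM in 1 library, an interval without 1 and at least 33.3% of the highest level among all named classes. This choice left out mitochondrial and ribosomal genes, those of haemoglobin and of antigen receptors, and predicted genes without a name. Added to them were up to 4 members of each described list with the largest change, and 15 genes in every class. Further genes were chosen after their values were seen. Members, lists and tests were chosen with earlier results of these data known.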

Additional observations from a re-analysis of the deposited data

Results flagged for a closer look

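Retnla, which encodes a resistin-like secreted protein, went in opposite directions in 2 classes. In AT2 cells its ratio of HSW to NW was 2.49 [2.33 to 2.66], while in cDC2 cells it was 0.00176 [0.000213 to 0.00636]. The difference between the classes was not tested, since each rests on 1 library a side. In AT2 cells 1 HSW cell held 31.6% of the Retnla UMIs, and without the top cell of each library the ratio was 2.12. With cells thinned the AT2 ratio was lower still, as given above. In cDC2 cells the change was from 1550 UMIs in 15 of 120 cells to 2 UMIs in 2 of 83 cells. Ccl4, an inflammatory chemokine, also went in opposite directions, with a ratio of 2.57 [2.33 to 2.83] in neutrophils and 0.460 [0.385 to 0.548] in T cells, a difference that was not tested either.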

How the results depend on the processing

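No paired analysis was possible because each group is 1 pooled library; for the same reason no replicate could be left out. Over the 10 classes together, genes past the fold higher made up 5.05% by class totals and lower ones 26.2%. The higher share was 13.2% with TMM, 13.2% with DESeq2 size factors, 18.3% with no UMI minimum and 1.09% at 2-fold. The lower share was 8.92%, 8.81%, 41.5% and 6.54% in the same order. TMM and DESeq2 thus turned the balance between higher and lower and moved 256 (TMM) and 259 (DESeq2) of 617 named gene ratios out of their counting intervals. One factor per class leaves the difference of a list from the median of all genes as it is, by construction. Share ratios of HSW to NW moved most with the clustering and with the removal of mixed cells: for AT2 cells 1.63 with only Scrublet calls removed, 1.51 at the stricter mixed level of 0.1, 1.17 with the 2 libraries clustered and 1.19 with the unnamed clusters joined, for B cells 0.912 (Scrublet only) and 1.09 (common UMI minimum), for adventitial fibroblasts 1.24 (Scrublet only) and 1.60 (2 libraries), for alveolar fibroblasts 0.745 and 1.08, for alveolar macrophages 1.21, 1.18 and, with the common UMI minimum, 1.02, and for classical monocytes 1.00 (Scrublet only), 0.847 (2 libraries) and 0.674 (unnamed clusters joined, an alternative chosen after seeing the data). With the 2 libraries clustered, 5 of 616 named gene ratios reversed: Acta2 (1.11) and Gpx3 (0.981) in adventitial fibroblasts, Top2a (0.980) and Ube2c (0.425) in cDC2 cells, and H2-Eb1 (0.805) in classical monocytes. Il6 in alveolar macrophages turned to 1.19 with cells thinned and 1.06 with clusters weighted equally, and Ltf in neutrophils to 0.873 with clusters weighted equally. The cholesterol list of adventitial fibroblasts turned to 1.26 log2 units above the median with only genes of at least 50 UMIs, which left few members. In each of these the cause was not tested beyond the change of setting. Small classes, such as the 72 B cells and 73 alveolar fibroblasts of HSW, limit what is measured to abundant genes.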

Other observations

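Classes with fewer than 50 kept cells in a library were not compared. These were ciliated cells (32 in NW and 31 in HSW), club cells (38 and 49), AT1 cells (28 and 24), cDC1 cells (93 and 46), non-classical monocytes (221 and 45), plasma cells (16 and 11), plasmacytoid dendritic cells (15 and 10), smooth muscle cells and myofibroblasts (16 and 12), lymphatic endothelial cells (6 and 8) and mature dendritic cells (4 and 2). Vascular endothelial cells, outside the comparison, numbered 57 in NW and 274 in HSW. Club cells made up 0.724% and 1.30% of kept cells, and Scgb1a1 took 623635 and 792102 CPM of their UMIs.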
